A study of Mus musculus with 16 samples.

Results

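The vascular nuclei described here are the nuclei of the mouse dentate gyrus (DG) that carried at least 3 UMIs, summed over 7 marker genes of blood vessels (*Flt1*, *Cldn5*, *Mecom*, *Ebf1*, *Rgs5*, *Pdgfrb* and *Vtn*), and no more than 1 UMI summed over 6 barred genes of other cell types (*Gad2*, *Mog*, *Gja1*, *Inpp5d*, *Prox1* and *Pdgfra*). A UMI is a molecular tag that counts 1 captured RNA molecule once. The nuclei were thus chosen by their UMIs of these 13 genes, which gave 89 vascular nuclei among 17015 nuclei. Because the rule reads measured values, the UMIs of these 13 genes are given as a description and enter no test of a gene, and only the number of nuclei they chose was compared between mice. RNA and open chromatin (ATAC) were read from the same nuclei of 8 mice, 1 library per mouse. They were 4 wild-type (WT) mice and 4 mice homozygous for V321L, a valine-to-leucine change in the transmembrane domain of neuregulin 1 (*Nrg1*), each genotype with 2 females and 2 males. All mice received no treatment that the labels name beyond their genotype, and in all of them the nuclei came from fresh frozen, microdissected DG. The V321L change is carried by every cell of the animal and is not restricted to vessels, and the age and strain of these 8 mice are not given in the sources used here. Values by mouse are listed in the order female 1, female 2, male 1 and male 2. The labels number the mice within each genotype. Mice are therefore the replicates of the tests, and gene tests share the spread between mice partly or wholly over genes.

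Brain capillaries are tubes of endothelial cells sealed by tight junctions, which form the blood-brain barrier and feed the tissue through transporters for glucose, amino acids and lipids. Pericytes sit on the tube inside the shared basement membrane, depend on platelet-derived growth factor from the endothelium and its receptor, and regulate vessel tone and barrier maturation. Arterioles carry smooth muscle cells in place of pericytes, and fibroblasts of the perivascular space and the meninges, also called vascular leptomeningeal cells, deposit collagen around larger vessels. In the DG, vessels line the niche of the neural stem cells below the granule cells (GCs). Of the marker genes, *Flt1* encodes a VEGF receptor, *Cldn5* the main claudin of endothelial tight junctions and *Mecom* a transcription factor of arterial endothelium. *Ebf1* encodes a transcription factor of pericytes and other mesenchymal cells, *Rgs5* a regulator of G protein signalling in pericytes, *Pdgfrb* the platelet-derived growth factor receptor of mural cells and *Vtn* the matrix protein vitronectin, which brain pericytes secrete.

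The promoters of 3 genes are printed because in V321L vascular nuclei a larger share of the ATAC counts lay in peaks at their start sites than in the other V321L nuclei. WT vascular nuclei had 0 counts there, but too few ATAC counts in all to read this as a difference between genotypes, as given with the accessibility results. They were chosen after those values were seen. *Kcnj8* encodes the pore of an ATP-sensitive potassium channel of pericytes, *Igfbp7* a secreted binding protein of the vessel wall and *Itga1* the alpha subunit of a collagen receptor. Each sequence is RefSeq's, runs from 250 bases before to 50 bases after the start of transcription on the gene's own strand, so that its end lies in the first exon, and is given 5′ to 3′ on build GRCm38.p6. *Kcnj8* lies at chr6:142571565-142571864, *Igfbp7* at chr5:77407996-77408295 and *Itga1* at chr13:115101915-115102214, all on the minus strand. Capitals mark AGGAAG, a core of sites bound by ETS factors of the endothelium, or ACGTG, the core of sites bound by hypoxia-inducible factors, on either strand, and these letters do not overlap each other.
Kcnj8: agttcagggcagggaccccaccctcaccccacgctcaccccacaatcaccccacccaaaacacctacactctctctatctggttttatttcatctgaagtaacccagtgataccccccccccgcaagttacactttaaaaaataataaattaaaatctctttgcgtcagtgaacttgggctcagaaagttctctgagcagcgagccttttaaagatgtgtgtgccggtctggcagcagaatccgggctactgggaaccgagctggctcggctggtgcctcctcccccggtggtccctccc
Igfbp7: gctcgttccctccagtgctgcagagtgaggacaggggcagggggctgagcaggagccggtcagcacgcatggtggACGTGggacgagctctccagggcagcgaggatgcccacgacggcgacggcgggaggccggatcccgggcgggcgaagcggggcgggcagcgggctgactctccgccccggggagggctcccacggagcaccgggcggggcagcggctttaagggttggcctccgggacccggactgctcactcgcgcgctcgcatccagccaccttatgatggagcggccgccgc
Itga1: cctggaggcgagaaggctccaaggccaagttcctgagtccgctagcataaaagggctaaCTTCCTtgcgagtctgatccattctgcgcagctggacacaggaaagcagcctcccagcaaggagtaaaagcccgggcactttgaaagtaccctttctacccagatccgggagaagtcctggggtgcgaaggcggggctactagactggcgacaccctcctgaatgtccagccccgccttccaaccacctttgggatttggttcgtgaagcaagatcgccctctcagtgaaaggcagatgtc
*Kcnj8* held neither motif, *Igfbp7* held 1 ACGTG and *Itga1* held 1 ETS core, read on the opposite strand. AGGAAG was found in 35.4% (11613) and ACGTG in 19.6% (6447) of 32851 promoters of 300 bases, so that a match is no more than a description of these windows.

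The libraries held between 4326426 and 23582057 RNA UMIs, and the libraries of the 2 genotypes stood apart in ways that touched every kind of nucleus. The nuclei outside the vascular set had a median of 1123 to 1954 UMIs in the WT mice and 2752 to 4179.5 in the V321L mice. The share of their UMIs from 83 genes of the cytosolic ribosome was 0.0496% to 0.117% in WT and 0.824% to 1.72% in V321L mice, and that of the nuclear RNA *Malat1* was 0.831% to 1.09% and 3.85% to 4.60%. Vascular nuclei were smaller libraries, with a median of 970 UMIs (1422.5 in WT and 941 in V321L), and their sums came to 621, 17417, 1472 and 17739 UMIs in the WT mice and 21952, 42393, 7224 and 16268 UMIs in the V321L mice. No vascular nucleus was marked as a doublet, where 2.92% to 4.62% of the nuclei of a library were. Among the nuclei, 171 barcodes occurred in more than 1 library, 0 of them shared between vascular nuclei, and 3 vascular barcodes were also a nucleus of another library.

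The 7 markers split the vascular nuclei into nuclei that leaned endothelial, with more UMIs of *Flt1*, *Cldn5* and *Mecom*, and nuclei that leaned mural, with more UMIs of *Ebf1*, *Rgs5*, *Pdgfrb* and *Vtn*. Of the 16 WT nuclei, 7 leaned endothelial and 9 mural. Of the 73 V321L nuclei, 21 leaned endothelial, 49 mural and 3 were tied. *Vtn* gave 10 UMIs in the WT and 302 in the V321L nuclei, *Ebf1* 67 and 132, *Flt1* 12 and 107, *Rgs5* 10 and 59, *Mecom* 31 and 45, *Pdgfrb* 2 and 58, and *Cldn5* 0 and 64. The markers of WT nuclei were thus mostly *Ebf1* and *Mecom*, while those of V321L nuclei were led by *Vtn*. A nucleus entered with 7 marker UMIs in WT and 8 in V321L at the median, and with 18 and 49 at most. Just inside the threshold, 5 WT and 11 V321L nuclei had exactly 3 marker UMIs, and just outside it 9 WT and 27 V321L nuclei had 2. A further 3 WT and 18 V321L nuclei had enough marker UMIs but 2 or more of barred genes.

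**Figure D1:**
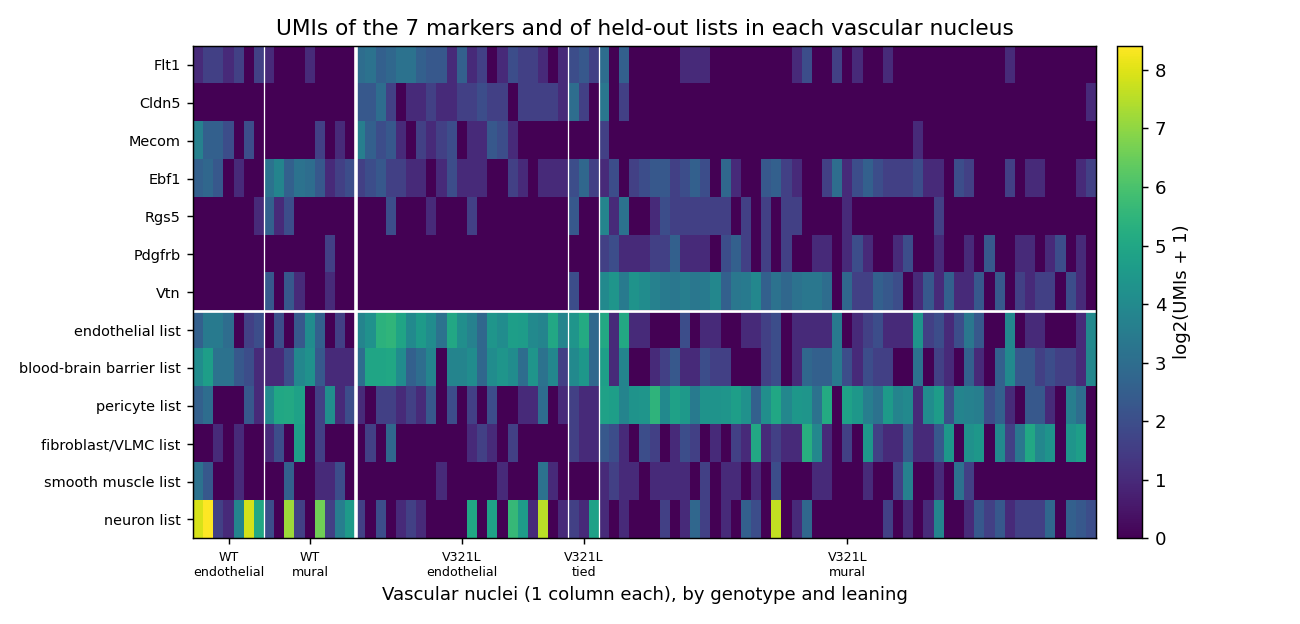
Each column is 1 vascular nucleus, ordered by genotype and leaning, and each row is a marker of the rule (above the white line) or the sum of a held-out gene list (below it). Colour gives log2(UMIs + 1). The 21 endothelial-leaning V321L nuclei carry the endothelial and blood-brain barrier lists, most of the 49 mural-leaning ones carry the pericyte list, and several WT nuclei carry many UMIs of the neuron list.

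The vascular label was checked with genes the rule did not read: 25 endothelial genes, 23 genes of the blood-brain barrier and 25 pericyte genes. Over all V321L vascular nuclei, a median of 2.80% of a nucleus's UMIs came from these lists, and 60 of 73 nuclei (82.2%) reached 1%. In the other nuclei of the V321L mice the median was 0.171%, and 10 of 7112 reached 1%. Over the WT vascular nuclei the median was 0.850%, against 0.154% in the other WT nuclei, of which 9 of 9814 reached 1%. The WT nuclei fell into 2 kinds. In 9 of the 16, neuronal genes (a list of 13) made up 1% or more of the UMIs, the held-out vascular lists came to 0.434% at the median and 0.912% at most, and none reached 1%. In the other 7 the vascular lists came to 2.51% at the median, between 1.30% and 4.56%, and all reached 1%. Of the V321L nuclei 7 of 73 were neuronal by that measure. These nuclei were deep, so that they held 81.5% of the UMIs of the WT vascular nuclei and 25% of those of the V321L vascular nuclei. The vascular label is therefore in doubt for 9 of 16 WT nuclei, although their median of the held-out lists lay above the 0.154% of the other WT nuclei. Of the V321L nuclei 13 of 73 also stayed under 1% of the held-out lists, 10 of them under 1% of the neuron list too. Astrocyte-list UMIs came to 9690 CPM in the 7 vascular nuclei of V321L male 1, against 7468 CPM in its glial nuclei, and to 1048 to 2699 CPM in the vascular nuclei of the other mice. Their part in the results was not tested. Results are given with and without nuclei at 1% or more of the neuron list, a limit chosen after the values were seen. The limit was not alike in the 2 genotypes. In glial nuclei the neuron list came to 17641 to 26765 CPM in WT mice, above it. In those of V321L mice it came to 5020 to 9069 CPM, below it. In barcodes with at most 100 UMIs it came to 16370 to 19173 CPM in WT and 5380 to 5620 CPM in V321L libraries. Macrophage and blood genes reached 3 UMIs in 0 of the 89 nuclei, smooth muscle genes in 8.

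**Figure D2:**
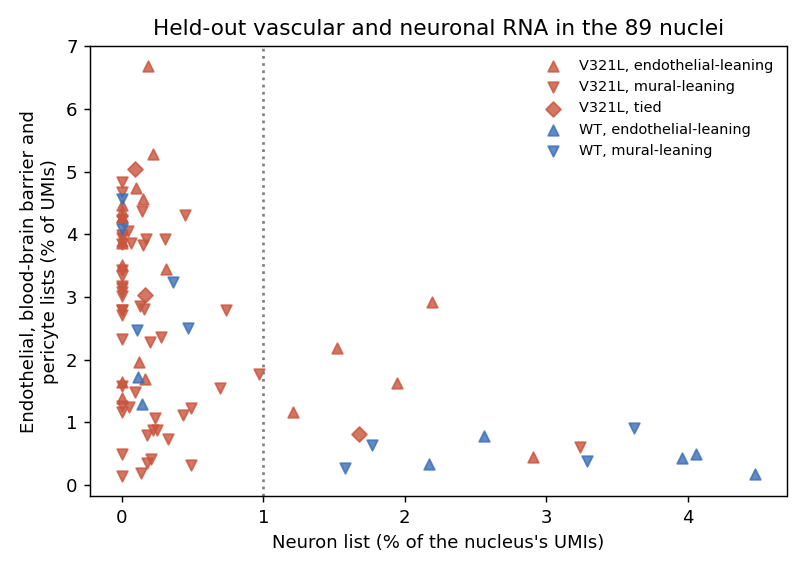
Each point is 1 of the 89 vascular nuclei, with the share of its UMIs from the neuron list on the x axis and from the held-out endothelial, blood-brain barrier and pericyte lists on the y axis, both in percent. The 9 WT nuclei to the right of the dotted line at 1% all lie under 1% on the y axis, while the 7 WT nuclei to its left lie among the V321L nuclei.

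Vascular nuclei made up a larger share of each V321L library than of any WT library. The WT libraries held 1 of 1834, 7 of 3762, 1 of 1981 and 7 of 2253 nuclei, or 0.0545%, 0.186%, 0.0505% and 0.311%. The V321L libraries held 22 of 2062, 27 of 2019, 7 of 1515 and 17 of 1589, or 1.07%, 1.34%, 0.462% and 1.07%. The 2 genotypes did not overlap, although WT male 2 and V321L male 1 came close. The mean share was 0.984% ± 0.370 (SD, n = 4) for the V321L and 0.150% ± 0.124 (SD, n = 4) for the WT genotype, a difference of 0.834 percentage points with a two-sided exact permutation p of 0.0286, below which 70 assignments cannot go. Leaving out any 1 WT mouse gave p = 0.0571 by the same exact test. That most vascular nuclei were V321L was known when the rule was set. The p-values of the share, here and under the alternatives, therefore describe how the mice separate and are no independent test. Pooled, the share was 0.163% (16 of 9830, exact 95% interval 0.0931% to 0.264%) in WT and 1.02% (73 of 7185, 0.797% to 1.28%) in V321L mice, a ratio of 6.24. Intervals of shares and counts cover counting error only.

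The size of this difference depended on which nuclei could enter. When each nucleus was thinned to 500 UMIs, which matches the UMIs but not the ATAC counts per nucleus, the mean shares were 0.0801% and 0.695% with no overlap (exact permutation p = 0.0286). Thinned to 1000 UMIs they were 0.0769% and 0.362%, again with no overlap (exact permutation p = 0.0286). Without nuclei at 1% or more of the neuron list, 7 WT and 66 V321L nuclei remained, the means were 0.0643% and 0.888% and the ratio rose to 12.9 (exact permutation p = 0.0286). Glial nuclei of WT mice lay above that limit and those of V321L mice below it, so that this ratio is not like for like. Without the minimum of 500 ATAC counts in peaks, 47 of 13297 WT and 90 of 9265 V321L nuclei were vascular, the ratio fell to 2.75, the genotypes overlapped and the test did not pass (exact permutation p = 0.0857). The markers also differed between genotypes by gene length. *Flt1*, *Mecom* and *Ebf1*, whose genes span 165, 558 and 390 kb, gave 83.3% of the marker UMIs of WT vascular nuclei and 37.0% of those of V321L vascular nuclei, where *Cldn5*, *Rgs5*, *Pdgfrb* and *Vtn* span 1.42, 40.3, 39.9 and 3.21 kb. As a description, since the rule used these genes and the split was made after the values were seen, the ratio of the shares was 4.01 by the 3 long genes alone, with overlap between genotypes, and 21.9 by the 4 shorter genes alone, without overlap. Free RNA, measured in barcodes with at most 100 UMIs, held 32.1 CPM (counts scaled to the library total) of *Vtn* and 6.11 CPM of *Cldn5* in V321L libraries and 7.21 and 0.655 CPM in WT libraries, against 3438 and 729 CPM in V321L vascular nuclei and 268 and 0 CPM in WT vascular nuclei. The part of the library-wide differences in the shares was not tested beyond these alternatives.

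**Figure D3:**
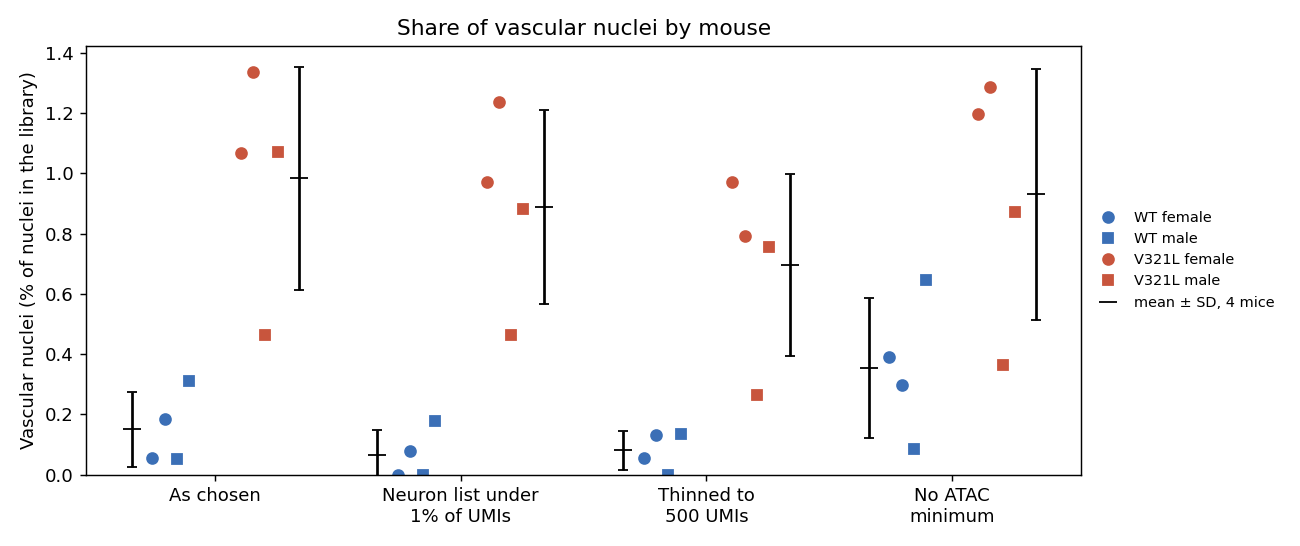
The y axis gives vascular nuclei as a percent of the nuclei of a library, 1 point per mouse (circles females, squares males) with the mean and SD of 4 mice, under 4 ways of choosing nuclei. The V321L mice lie above the WT mice in the first 3, and WT male 2 and V321L male 1 overlap when no ATAC minimum is set.

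The leaning of the vascular nuclei is given as a description, because the markers of the rule set it, and was not tested between genotypes. Endothelial-leaning nuclei made up 43.8% (7 of 16, exact 95% interval 19.8% to 70.1%) in WT and 28.8% (21 of 73, 18.8% to 40.6%) in V321L mice. By mouse, the WT libraries held 0, 5, 1 and 1 endothelial-leaning and 1, 2, 0 and 6 mural-leaning nuclei, and the V321L libraries held 7, 9, 0 and 5 endothelial-leaning and 14, 18, 6 and 11 mural-leaning nuclei. Mural-leaning nuclei were thus the more frequent kind in every V321L mouse. In WT the split hung on *Mecom* and *Ebf1*. Without *Mecom* 18.8% of the WT nuclei leaned endothelial, against 26.0% of the V321L nuclei, and without *Ebf1* 62.5% and 37.0% did.

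Genes outside the rule mostly followed the split in V321L mice. Endothelial-list UMIs came to 13936 to 15460 CPM in the endothelial-leaning nuclei of the 3 V321L mice that had any and to 818 to 4697 CPM in the mural-leaning nuclei of all 4. Pericyte-list UMIs came to 528 to 1508 CPM in the endothelial-leaning and 9409 to 17268 CPM in the mural-leaning nuclei. In 20 of 21 endothelial-leaning V321L nuclei the endothelial and barrier lists reached 10 UMIs together, and in 38 of 49 mural-leaning ones the pericyte list reached 5. The endothelial and barrier lists also reached 10 UMIs in 7 of the 49, and 4 of these had fewer than 5 pericyte-list UMIs. Held-out genes thus went against the mural leaning of these 4. Among the 9 mural-leaning WT nuclei these numbers were 2 and 1. WT endothelial-leaning nuclei had 1197 to 2038 CPM of the endothelial list, below every value of the endothelial-leaning V321L nuclei. Of these 7 WT nuclei, 5 held 1% or more of the neuron list.

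Across both genotypes, some genes were at 0 in all 28 endothelial-leaning nuclei. *Atp13a5*, which encodes a cation-transporting ATPase of brain pericytes, had 92 UMIs in the mural-leaning nuclei and 0 in the endothelial-leaning ones, and *Slc6a20a*, a proline transporter, had 108 and 0. *Notch3*, the Notch receptor of mural cells, had 25 and 0, and *Cspg4*, a proteoglycan of pericytes and oligodendrocyte precursors, had 22 and 0. *Abcc9* and *Kcnj8*, the 2 subunits of the pericyte potassium channel, had 21 and 16 UMIs against 0 and 0. On the endothelial side, *Pecam1*, an adhesion molecule of endothelial junctions, had 20 UMIs (375 CPM) in the endothelial-leaning and 7 (103 CPM) in the mural-leaning nuclei. *Slco1a4*, an organic anion transporter of brain endothelium, had 1107 and 295 CPM, and *Ly6c1*, an antigen of brain endothelium whose reads a close paralog may share, had 1595 and 192 CPM.

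The test of the 2 leanings was restricted to 50 genes, with the UMIs of each kind summed in the 5 mice that had at least 1000 of both. Of these genes 0 were higher in endothelial-leaning nuclei (0% of genes tested) and 3 were lower (6%) by edgeR's quasi-likelihood test with Benjamini-Hochberg adjustment, 13 having an unadjusted p under 0.05. The 3 genes were *Dlc1*, a GTPase-activating protein of contractile cells, at a log2 fold change of -4.93 ± 0.72 (SE, adjusted p = 0.000445), *Plcl1*, a phospholipase C-related protein, at -2.99 ± 0.48 (adjusted p = 0.000638), and *Ptn*, the growth factor pleiotrophin, at -2.89 ± 0.60 (adjusted p = 0.00497). Each was lower in the endothelial-leaning nuclei of all 5 mice, and *Dlc1* had 4 UMIs there against 164 in the mural-leaning nuclei. No member of the endothelial list had enough UMIs to be tested. With DESeq2, 3 genes were higher and 6 lower of 42 tested, and with library totals in place of TMM normalization 3 were higher and 5 lower. Without nuclei at 1% or more of the neuron list 57 genes could be tested, 13 were higher and 13 lower, with 2 of 3 tested endothelial and 3 of 4 tested barrier genes among the higher. Leaving out WT female 2 gave 1 higher and 6 lower, leaving out V321L female 1 gave 1 higher, and leaving out V321L male 2 gave 5 lower.

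Some mural-leaning nuclei carried fibroblast genes. Among the 49 V321L ones, 14 had at least 5 UMIs of the 20-gene fibroblast list and 9 of these also had at least 5 of the pericyte list, limits set after seeing the values, so that the following is a description only. The 14 nuclei held 18909 UMIs and the other 35 held 35418. *Ptgds*, the prostaglandin D synthase of the meninges, gave 1118 UMIs (59125 CPM) in the 14 and 19 UMIs (536 CPM) in the 35. *Apod*, a lipid carrier of fibroblasts, gave 129 UMIs against 1, and *Slc7a11*, a cystine transporter, 85 against 0. Several pericyte genes were at 0 in the 14: *Atp13a5* gave 0 UMIs in the 14 and 75 in the 35, *Rgs5* 0 and 49, *Notch3* 0 and 23, *Abcc9* 0 and 19, *Kcnj8* 0 and 16, and *Higd1b*, a mitochondrial protein gene of pericytes, 0 and 12. *Vtn*, the marker that let most of these nuclei in, was present in both at 59 and 240 UMIs, and *Pdgfrb* at 7 and 51. Other pericyte-list genes were found in both, *Dlc1* at 12 UMIs in the 14 and 102 in the 35 and *Cald1* at 6 and 53. The whole pericyte list came to 0 to 20 UMIs per nucleus in the 14, with a median of 6, and to 0 to 43 in the 35, with a median of 19. The rule therefore also took in nuclei that carried fibroblast genes, 5 of which had fewer than 5 pericyte-list UMIs. In WT, 1 of 9 mural-leaning nuclei reached 5 fibroblast-list UMIs.

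**Figure D4:**
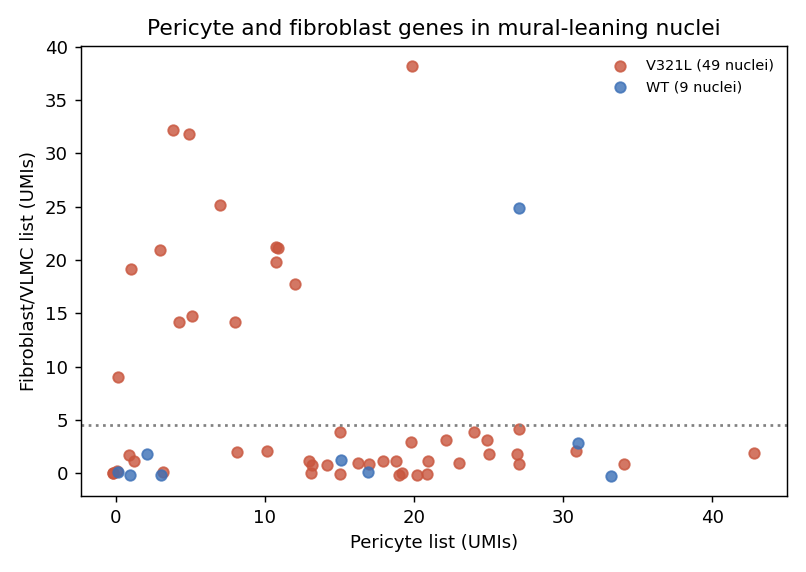
Each point is 1 mural-leaning nucleus (49 V321L, 9 WT), with the UMIs of the 25-gene pericyte list on the x axis and of the 20-gene fibroblast list on the y axis, points being shifted slightly so that they do not cover each other. The 14 V321L nuclei above the dotted line, which separates 4 from 5 UMIs, have at most 20 pericyte-list UMIs, against up to 43 in the 35 V321L nuclei below it.

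Vascular nuclei differed from the other nuclei of the same mice in many genes, and the rises included endothelial, barrier, fibroblast, basement membrane and pericyte genes. Sums over the vascular and over the other nuclei were compared in 7 mice, leaving out WT female 1 with its 621 vascular UMIs. Of 8979 genes tested, 298 were higher (3.32%) and 1862 lower (20.7%) in vascular nuclei (edgeR quasi-likelihood test with mouse as a block and Benjamini-Hochberg adjustment), with a median log2 fold change over all genes of -0.81. With library totals in place of TMM normalization the median was 0.14, 726 genes (8.09%) were higher, among them all 298 of the former, and 3.58% were lower. The largest falls are therefore named only where both scalings gave them, which held for 3.58% of the genes. Without V321L female 2 the higher genes numbered 170, and without V321L female 1 the lower ones numbered 1192.

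The largest rise among genes higher in all 7 mice was that of *Cyyr1*, which encodes a small membrane protein. It had 0, 1, 1 and 8 UMIs in the vascular nuclei of the WT mice and 3, 15, 3 and 7 in those of the V321L mice, and no more than 1.8 CPM in the other nuclei of any mouse. Its log2 fold change was 8.41 ± 0.42 (SE, adjusted p = 1.89e-68 from edgeR), and the pooled ratio of vascular to other nuclei was 694. In this comparison edgeR took the spread between mice wholly from the trend over all genes. Its p-values therefore do not reflect a gene's own spread between mice. *Itga1* had 0, 6, 1 and 8 UMIs in WT and 16, 10, 5 and 11 in V321L mice, a log2 fold change of 5.98 ± 0.36 (adjusted p = 2.75e-58 from edgeR). *Epas1*, which encodes a hypoxia-inducible transcription factor of endothelium, had 0, 3, 1 and 3 UMIs in WT and 9, 14, 2 and 2 in V321L mice, at 4.54 ± 0.38 (adjusted p = 2.23e-29 from edgeR). Being higher in each of the 7 mice of the test was a condition for naming these genes. Their UMIs in every such mouse are therefore a description.

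*Slc2a1*, the glucose transporter of the blood-brain barrier, had 0, 1, 1 and 2 UMIs in WT and 19, 20, 4 and 4 in V321L vascular nuclei, at a log2 fold change of 4.38 ± 0.39 (adjusted p = 5.35e-27 from edgeR). *Ptn* had 0, 5, 1 and 33 UMIs in WT and 104, 124, 31 and 37 in V321L vascular nuclei, at 2.94 ± 0.44 (adjusted p = 4.17e-09). Astrocytes and other glia also express *Ptn*, and against 1100 glial nuclei alone it did not pass (adjusted p = 0.0797). *Kitl*, the ligand of the KIT receptor, had 0, 3, 4 and 1 UMIs in WT and 6, 12, 3 and 6 in V321L vascular nuclei, and 27 of them in endothelial-leaning nuclei. *Ptprm*, a receptor phosphatase of endothelial junctions, rose by 2.71 ± 0.36 on the log2 scale, *Kitl* by 2.63 ± 0.39 and the noncoding RNA *Airn* by 2.70 ± 0.37. *Airn* runs antisense to *Igf2r*, which was also higher at 1.51 ± 0.49, and whether counting used strand is not given in the sources used here. *Tshz2*, a zinc finger gene, rose by 1.70 ± 0.43 (adjusted p = 0.00121) and *Lims1*, an adaptor of integrin adhesions, by 1.47 ± 0.39 (adjusted p = 0.00183). *Tshz2* did not pass without V321L female 1 (adjusted p = 0.149), and *Lims1* did not pass without V321L male 2 (adjusted p = 0.108).

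The largest falls were in genes with 0 UMIs in all 89 vascular nuclei, for which the fold is a bound set by 3 counts over the group. *Gm32647*, a noncoding RNA, was at least 8.65-fold lower in vascular than in other nuclei. *Tenm4*, a teneurin of neurons and oligodendrocyte lineage cells, was at least 7.26-fold lower, *Fstl5*, a follistatin-like protein gene of neurons, at least 3.53-fold, *5330417C22Rik* at least 3.5-fold, and *Kcnk10*, a potassium channel gene, at least 3.17-fold. All 5 passed under both scalings.

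Of the 25 endothelial genes 6 had enough counts for the filter, and 5 of these were higher in vascular nuclei: *Cyyr1*, *Fli1* and *Tek*, an ETS factor and the angiopoietin receptor, *Egfl7*, a secreted vessel protein, and *Arhgap29*, a GTPase-activating protein gene. The median log2 fold change of the 6 was 3.52, against -0.81 over all genes tested. *St6galnac3*, a sialyltransferase, was lower at -1.18 ± 0.43 (adjusted p = 0.0329) with TMM but not with library totals. *Tek* had no UMI in a WT vascular nucleus and 9, 13, 2 and 2 in those of the V321L mice, 19 of them in endothelial-leaning nuclei. Without a filter, 24 of the 25 endothelial genes were higher, where 2.91% of 25868 genes were. The classical markers were low in UMIs: *Pecam1* had 0, 1, 0 and 0 in WT and 5, 18, 0 and 6 in V321L vascular nuclei, and *Cdh5*, VE-cadherin, had 2 UMIs in WT and 6 in V321L in all.

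Of 23 barrier genes 11 were tested and 7 were higher, with a median log2 fold change of 2.04. They were *Slc2a1*, *Slco1c1* (thyroid hormone and anion transport), *Abcg2* (drug efflux), *Slc7a5* (large neutral amino acids), *Slc16a1* (lactate), and *Apcdd1* and *Adgra2* (Wnt signalling at the barrier). *Slco1a4* had 0, 8, 0 and 15 UMIs in WT and 19, 29, 4 and 11 in V321L vascular nuclei, and no more than 2.8 CPM in the other nuclei of any mouse. *Abcb1a*, the efflux pump P-glycoprotein, had 0, 4, 0 and 8 UMIs in WT and 9, 9, 1 and 5 in V321L vascular nuclei. Both were therefore present in WT female 2 and WT male 2, the 2 WT mice with 7 vascular nuclei. Without a filter 15 of the 23 were higher. *Mfsd2a*, the lipid transporter of the barrier, had 3 UMIs in all and was below the filter.

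Of 25 pericyte genes 7 were tested and 4 were higher, with a median log2 fold change of 1.33: *Dlc1*, *Cspg4*, *Cald1* (caldesmon) and *Gucy1a1* (a subunit of soluble guanylate cyclase). Without a filter 19 of the 25 were higher. *Dlc1* had 0, 7, 0 and 43 UMIs in WT and 29, 34, 15 and 40 in V321L vascular nuclei, at 3.60 ± 0.40 (adjusted p = 7.57e-17 from edgeR). *Atp13a5* had 0, 4, 0 and 13 UMIs in WT and 26, 21, 10 and 18 in V321L vascular nuclei. Its UMIs were thus found in 6 of 8 mice, and the 2 mice without any were those with a single vascular nucleus.

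Of 20 fibroblast genes 4 were tested and 3 were higher, *Cped1*, *Bicc1* and *Ranbp3l*, with a median of 2.62. *Cped1* had 0, 2, 0 and 4 UMIs in WT and 11, 27, 15 and 13 in V321L vascular nuclei, at 5.82 ± 0.37 (adjusted p = 8.42e-52 from edgeR). Of 13 smooth muscle genes 3 were tested, of which *Mylk*, myosin light chain kinase, was higher and *Itga8* and *Kcnab1* lower, *Kcnab1* being a potassium channel subunit that neurons also use. *Acta2*, smooth muscle actin, had 0 UMIs in WT and 7, 1, 0 and 0 in V321L vascular nuclei.

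In the basement membrane list 12 of 20 genes were tested and 7 were higher, with a median of 1.57: *Col4a1*, *Lama2* and *Lama4* (collagen IV and laminin chains), *Itga1*, *Itga6* and *Itgb1* (their integrin receptors) and *Sparc*. *Lama2* had 59 UMIs in mural-leaning and 3 in endothelial-leaning nuclei, while *Itga6* had 6 and 12. Of 16 genes of the PDGF and Notch pathways 9 were tested and 4 were higher, the ligands *Pdgfb*, *Pdgfd* and *Jag1* and the receptor *Notch1*. *Pdgfb*, the endothelial ligand that recruits pericytes, had 9 UMIs in endothelial-leaning and 3 in mural-leaning nuclei, and *Pdgfd* had 28 and 17. Of 18 genes of TGF-beta and BMP signalling 11 were tested and 3 were higher, the ligand *Bmp6*, the receptor *Tgfbr2* and the target *Id3*. *Bmp6* had 30 UMIs in mural-leaning and 0 in endothelial-leaning nuclei. Of 12 VEGF and angiopoietin genes 7 were tested, *Tek* and *Vegfc* were higher, and *Nrp1*, a co-receptor that neurons also express, was lower with TMM at -1.63 ± 0.44. Of 13 arterial and 9 venous genes, 2 and 1 were tested, and *Vegfc* and *Nr2f2*, the venous nuclear receptor COUP-TFII, were higher. *Nr2f2* had 37 UMIs in mural-leaning and 4 in endothelial-leaning nuclei.

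Genes of other cell types were mostly lower or not called. All 12 tested genes of the 13-gene neuron list were lower with TMM, at a median of -2.48, and 8 with library totals. The list still made up 17713 to 33358 CPM in WT vascular nuclei against 39089 to 44935 CPM in the other WT nuclei, and 1800 to 9766 CPM in V321L vascular nuclei against 26168 to 29351 CPM. Of 10 GC genes 9 were lower with TMM and 1 with library totals. Of the tested astrocyte genes *Gjb6* was higher, with 22, 3 and 1 of its 26 UMIs in V321L female 2, male 1 and male 2, all of them in mural-leaning nuclei, and *Gpc5* and *Slc4a4* were lower. With library totals 4 of the 7 tested astrocyte genes were higher and 0 lower. Of the oligodendrocyte and microglia genes reported here, *Cldn11*, *St18* and *P2ry12* were lower with TMM and none was higher. Against the 1100 glial nuclei alone, 450 genes could be tested, 29 of them were higher (6.44%) and 69 lower.

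The mutated gene, *Nrg1*, and its receptors gave few UMIs in vascular nuclei. *Nrg1* had 0, 5, 3 and 21 UMIs in WT and 2, 6, 0 and 3 in V321L vascular nuclei, in 6 WT and 5 V321L nuclei. With TMM it was lower than in the other nuclei at -1.99 ± 0.47 (adjusted p = 0.00037 from edgeR), where the median over all genes tested was -0.81. *Erbb4*, the main neuregulin receptor of neurons, had 3 UMIs in WT and 3 in V321L vascular nuclei and was lower at -4.19 ± 0.60 (adjusted p = 4.76e-10). *Nrg3* was lower at -3.27 ± 0.57 and *Nrg2* at -2.94 ± 0.57, so that 4 of the 6 tested genes of this list of 8 fell with TMM and 3 with library totals. The fall of *Nrg1* was the smallest of the 4. *Egfr* had 4 UMIs and a log2 fold change of -0.03 ± 0.73 (adjusted p = 0.994). *Erbb2* and *Erbb3*, through which glia and endothelium can respond to neuregulins, had 1 UMI each and were not tested. At this depth a difference of *Nrg1* between genotypes in vascular nuclei was not tested either, because the gene was below the filter.

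Within vascular nuclei, V321L and WT mice were compared on the sums of 4 and 3 mice, which left 241 genes. Of these 50 were higher (20.7%) and 21 lower (8.71%) in V321L mice (edgeR quasi-likelihood test, Benjamini-Hochberg adjustment), with a median log2 fold change of 0.12 over all genes. With library totals the numbers were 44 higher and 63 lower at a median of -0.34. Of the genes named below, *Ptgds*, *Itm2a*, *Cd81*, *Ppia*, *Rplp1* and *Rpl17* had 0 UMIs in WT vascular nuclei, and *Bsg* and *Ly6c1* had 1. They passed the filter only through their V321L counts, and so did *Igfbp7*, *Tmsb4x* and *Cped1* with their few WT UMIs. The calls, folds and lack of overlap of all these genes are therefore a description. *Ptgds* had 0 UMIs in every WT mouse and 23, 857, 116 and 160 in V321L mice, at least 163-fold higher when pooled. Without V321L female 2 the bound was 81.7-fold, and 1118 of the 1156 UMIs lay in the 14 mural-leaning V321L nuclei with fibroblast genes, of which WT had 1. *Bsg*, the membrane protein basigin of brain endothelium, had 0, 1, 0 and 0 UMIs in WT and 75, 102, 13 and 34 in V321L mice, a pooled ratio of 95.0 (counting interval 16.9 to 3769) and a log2 fold change of 6.99 ± 1.02 (adjusted p = 0.00018). *Itm2a*, a membrane protein of endothelium and pericytes, had 0 UMIs in WT and 30, 42, 3 and 17 in V321L mice, at least 13-fold higher. Lack of overlap between genotypes was a condition for naming these genes.

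*Ly6c1* had 0, 0, 0 and 1 UMIs in WT and 38, 41, 10 and 19 in V321L vascular nuclei, a ratio of 45.8 (counting interval 8.05 to 1826). *Igfbp7* had 0, 1, 0 and 1 UMIs in WT and 52, 52, 10 and 27 in V321L vascular nuclei, a ratio of 29.9 (8.12 to 249). *Tmsb4x*, an actin-binding peptide, had 2 UMIs in WT and 148 in V321L vascular nuclei, a ratio of 31.4 (8.54 to 262). Lack of overlap between genotypes was a condition for naming these 3 genes. *Igfbp7* and *Tmsb4x* also passed the filter only through their V321L counts, so that their ratios are a description. All 3 were also higher in the rest of the V321L libraries. *Tmsb4x* was 28.1-fold higher in the other nuclei of V321L mice and 16.2-fold higher in free RNA, *Ly6c1* 6.83-fold and 17.5-fold, and *Igfbp7* 2.88-fold and 2.70-fold. Tested against the genotype difference of the other nuclei, that of *Igfbp7* in vascular nuclei did not pass (adjusted p = 0.18 from edgeR), nor did that of *Tmsb4x* (adjusted p = 0.942), and *Ly6c1* was below the filter of that test.

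RNAs of general cell functions also differed. *Cd81*, a tetraspanin, *Ppia*, cyclophilin A, and the ribosomal protein genes *Rplp1* and *Rpl17*, which have near-identical processed copies in the genome, had 0 UMIs in WT vascular nuclei and 78, 76, 83 and 52 in V321L vascular nuclei. They were at least 11-fold, 10.7-fold, 11.7-fold and 7.35-fold higher in V321L vascular nuclei, and 11.2-fold, 22.0-fold, 43.6-fold and 29.1-fold higher in the other nuclei. *Malat1* was 4.01-fold higher in vascular and 4.49-fold higher in the other nuclei. *Ptgds* was 56.9-fold higher in the other nuclei and 19.0-fold higher in free RNA, *Bsg* 14.8-fold and 7.39-fold, and *Itm2a* 3.17-fold higher in the other nuclei. The 83 ribosomal genes held 0.0451% to 0.340% of the UMIs of vascular nuclei in WT and 1.70% to 3.65% in V321L mice, and 0.809% to 1.45% and 9.87% to 11.3% of free RNA. The genotypes were thus apart in this measure in vascular nuclei, in other nuclei and in free RNA, and a difference between genotypes and one between libraries cannot be told apart here.

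**Figure D5:**
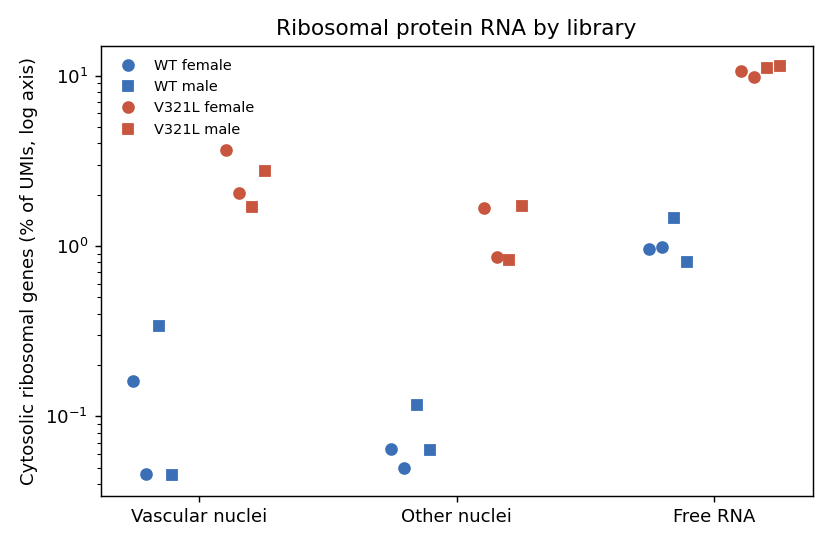
The y axis (log scale) gives the percent of UMIs from 83 cytosolic ribosomal genes, 1 point per mouse, in vascular nuclei, in the other nuclei and in free RNA (barcodes with at most 100 UMIs). V321L mice lie above WT mice in all 3, and free RNA lies above the nuclei of the same genotype.

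Among the listed genes, *Itm2a* and *Ly6c1* of the endothelial list were higher in V321L vascular nuclei, but with 0 and 1 UMIs in WT they passed the filter only through their V321L counts. Of 6 tested pericyte genes 4 were higher (*Atp13a5*, *Cald1*, *Rbpms* and *Slc6a20a*), where 20.7% of all tested genes were, and so was the 1 tested fibroblast gene, *Cped1*. *Cped1* also passed the filter only through its V321L counts. These pericyte and fibroblast calls were lost without nuclei at 1% or more of the neuron list, where 0 of 5 pericyte genes and 0 of 1 fibroblast gene passed, and with no filter on low counts 0 of 25 pericyte genes passed. *Atp13a5*, at a log2 fold change of 2.12 ± 0.64 (adjusted p = 0.0212 from edgeR), had a pooled ratio of 1.87 (counting interval 1.09 to 3.38) and was not higher in the other nuclei, where the ratio was 0.798. *Slco1a4*, with a ratio of 1.16 (0.710 to 1.96) and 1.23 ± 0.54 (adjusted p = 0.0855), did not pass. Among the falls were *Gm42418*, a locus that overlaps ribosomal RNA, and 4 neuronal genes. *Gm42418* fell by 3.15 on the log2 scale, with a pooled ratio of 0.0630 in vascular and 0.0492 in the other nuclei. *Tafa1*, a secreted neuronal protein gene, *Lingo2*, a neuronal membrane protein gene, *Tenm2*, a teneurin, and *Grin2a*, an NMDA receptor subunit, had log2 fold changes of -2.96, -2.59, -2.13 and -2.09 (adjusted p = 0.00442, 0.00535, 0.00442 and 0.031). *Grin2a* had 48, 2 and 27 UMIs in the 3 WT mice tested and 4, 20, 0 and 0 in the V321L mice, and it did not pass without WT female 2 (adjusted p = 0.247).

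Nuclei at 1% or more of the neuron list held 81.5% of the WT and 25% of the V321L vascular UMIs, and their part in these falls was not tested. Without such nuclei 93 genes could be tested, 18 were higher and 2 lower, and *Tafa1*, *Lingo2*, *Tenm2* and *Grin2a* no longer had enough counts. *Gm42418* still passed there, at -3.07 (adjusted p = 0.00789 from edgeR). *Ptgds*, *Itm2a*, *Rplp1*, *Bsg*, *Ly6c1*, *Tmsb4x* and *Igfbp7* passed in that comparison too. Without V321L female 1 the counts were 21 higher and 3 lower, and without WT female 2, WT male 1 or WT male 2 they were 73 and 8, 82 and 10, and 78 and 9. Without V321L female 2 they were 38 and 32, and without V321L male 2 30 and 12. A genotype difference in vascular nuclei that differed from that in the other nuclei was called for 2 of 8979 genes (0.0223%), *Bicc1* (adjusted p = 0.031) and *Tek* (adjusted p = 0.0393), with 415 at an unadjusted p under 0.05. *Bicc1*, an RNA-binding protein gene, had 0 UMIs in every WT mouse and 3, 26, 3 and 7 in V321L vascular nuclei. *Tek* had none in WT vascular nuclei either, and the spread came wholly from the trend over genes. Both calls are therefore a description.

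Open chromatin of the same nuclei was compared at 80 genes, the 7 markers and the held-out endothelial, barrier and pericyte lists that the annotation placed. The share of ATAC counts in peaks within these genes or 2 kb around them was 0.120%, 0.295%, 0.219% and 0.389% in WT and 0.493%, 0.424%, 0.449% and 0.306% in V321L vascular nuclei. In the other nuclei of the same mice it was 0.270%, 0.274%, 0.269% and 0.267% in WT and 0.237%, 0.264%, 0.265% and 0.245% in V321L mice. The vascular share was higher in 6 of 8 mice, by 0.0756 ± 0.133 percentage points (SD, n = 8, two-sided exact sign-flip permutation test, p = 0.148), no more than the mice varied among themselves. The 2 mice in which it was lower were WT female 1 and WT male 1, with 1 vascular nucleus each. In the 6 mice with at least 3 vascular nuclei it was higher in 6 of 6, by 0.134 ± 0.0855 percentage points (exact sign-flip permutation p = 0.0313, the smallest possible), and without WT female 1 alone the difference was 0.108 (exact p = 0.0469). Without nuclei at 1% or more of the neuron list it was 0.186 ± 0.0792 (6 of 6 mice, exact p = 0.0313). The vascular share averaged 0.418% ± 0.0801 over the V321L and 0.256% ± 0.114 over the WT mice, with 4 mice per genotype and SD as the error, and this genotype difference did not pass (exact permutation p = 0.0571).

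Chromatin followed the RNA-based leaning in V321L nuclei, pooled over mice and given with no test. Endothelial genes held 0.466% of the ATAC counts of endothelial-leaning V321L nuclei, 0.176% of those of mural-leaning ones and 0.182% of those of the other V321L nuclei. V321L female 1 and female 2 kept this order between the leanings. Male 2 did not, with 0.203% in endothelial-leaning and 0.218% in mural-leaning nuclei, and male 1 had no endothelial-leaning nucleus. Mural genes held 0.206% in mural-leaning, 0.0681% in endothelial-leaning and 0.0773% in the other V321L nuclei. In WT the order was not kept, with 0.186% of endothelial-gene counts in endothelial-leaning and 0.282% in mural-leaning nuclei. At start sites, *Kcnj8* had 10 counts in vascular and 128 in other nuclei, a ratio of the shares of counts of 31.0, *Itga1* had 6 and 112 (21.2) and *Igfbp7* had 13 and 452 (11.4). All of these vascular counts came from V321L nuclei, with 0 in WT, and peaks were called there in 4, 4 and 7 of 8 libraries, while the ratios divide by the totals of all libraries. By mouse, vascular nuclei held 2505, 10171, 20989 and 11299 ATAC counts in WT and 20064, 90325, 39654 and 13404 in V321L, so that the 0 in WT lies near the floor. *Epas1* had 28 and 925 counts, a ratio of 12 in peaks called in all 8 libraries, and *Slc2a1* had 31 and 3949, a ratio of 3.11. *Bsg* and *Vtn*, whose start sites were open in many nuclei, had ratios of 0.994 and 0.835. *Cldn5* and *Flt1* had a peak at the start site in 1 library each and 0 counts there in vascular nuclei.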

How the data were processed

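Nuclei of the DG of 4 WT and 4 V321L mice were profiled with the 10x Multiome kit, RNA and ATAC together, 1 library per mouse. The authors deposited raw UMI counts per gene and ATAC counts per peak for all barcodes. Per the file headers these count tables came from Cell Ranger ARC 2.0.2, with peaks called in each library separately, and the submitters' processing notes name mm10, Seurat and Signac without versions. No value was normalized before deposit. ATAC counts were read from the same tables as the RNA counts.

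Nuclei were barcodes with more than 500 UMIs and more than 250 genes, below the upper limits on UMIs, genes and mitochondrial share of the study's methods, and with at least 500 ATAC counts in peaks. Doublets (Scrublet in scanpy 1.11.5, score above the library mean + 2 SD) were kept and removed as an alternative. The members, gene lists and tests were chosen with earlier results of these data known. UMIs were summed per mouse, requiring at least 1000, and compared with edgeR 4.0.16 in R 4.3.3 (TMM, filterByExpr, glmQLFit and glmQLFTest, adjusted p at most 0.05 over all genes tested), without the 13 genes of the rule. Against the other nuclei and in the genotype-by-nucleus test, the spread came wholly from the trend over genes. The SE of an edgeR fold is approximate, taken from the fold and its F statistic. Shares were compared over mice with two-sided exact permutation tests (scipy 1.17.1), and share intervals are exact binomial ones at 95%. Count intervals are exact Poisson ones, and floors are 3 counts over a group. The depth of 621 to 42393 vascular UMIs per mouse leaves genes under about 20 UMIs poorly measured.

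Named with values were the 13 genes of the rule, members of the lists, *Nrg1* and its receptors, and per comparison up to 10 genes with the largest rise (at least 20 vascular UMIs) and 5 with the largest fall among those called with the same sign in every mouse or, between genotypes, without overlap. *Malat1*, *Apod*, *Slc7a11* and *Igf2r*, and the genes given for the start sites, were added after their values were seen. The alternatives were DESeq2 1.42.0, its size factors, no filter on low counts, each mouse left out, thinning, other thresholds of the rule, other comparison nuclei, and a replicate block. Library totals, the limit on the neuron list, the split of markers by gene length and the genotype-by-nucleus test were added after seeing the data. Each procedure was tested on simulated data, where TMM, unlike library totals, called unchanged genes lower in vascular sums. The result of 1 listed gene is not reported here.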

Additional observations from a re-analysis of the deposited data

Results flagged for a closer look

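The genotype difference of *Bicc1* in vascular nuclei differed from that in the other nuclei (edgeR interaction term, adjusted p = 0.031), and so did that of *Tek* (adjusted p = 0.0393). Both had 0 UMIs in every WT vascular sum and were above 0 in 4 of 4 V321L mice, so that these calls are a description. *Bicc1* UMIs lay mostly in mural-leaning nuclei (35 of 39), and *Tek* UMIs in endothelial-leaning ones (19 of 26). In 2 of 40 groups of mice 1 mouse lay far from the others, where chance gives about 1 in 20. *Itga1* was at 236 CPM in the vascular nuclei of V321L female 2 and at 676 to 729 CPM in those of the other 3 V321L mice. *Lims1* was at 1168 CPM in V321L male 2 and at 182 to 277 CPM in the other 3. The part of the WT vascular depth and of the neuron-list nuclei in these values was not tested.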

How the results depend on the processing

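The share of vascular nuclei was higher in V321L mice under all 21 alternatives. It lost its p under 0.05 with the same-numbered mice paired as a replicate block (difference 0.834, exact sign-flip p = 0.125, the smallest possible), without an ATAC minimum (0.575, p = 0.0857), by *Flt1*, *Mecom* and *Ebf1* alone (0.419, p = 0.0857) and without any 1 WT mouse (p = 0.0571). Leaving out each mouse gave 0.716 to 1.01 percentage points. Correlations between same-numbered mice were -0.0890, -0.156 and -0.132 over 241 genes. They cannot decide whether the numbers pair the mice, because centring within genotype constrains the average over all pairs and WT male 1 had 1 vascular nucleus. The endothelial-leaning share in WT moved to 18.8% without *Mecom*, to 62.5% without *Ebf1* (inside its interval) and to between 22.2% and 66.7% without 1 mouse, that in V321L to between 26.1% and 31.8%.

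Against the other nuclei, genes higher and lower were 3.32% and 20.7% of those tested. They were 7.24% and 4.32% (650 and 388 genes) with DESeq2 size factors, 8.09% and 3.58% with library totals, 2.64% (173 genes, with 1729 lower) with DESeq2, 2.91% and 16.3% (752 and 4225) with no filter and 6.44% and 15.3% (29 and 69) against glia. In V321L mice alone 11.2% were lower, 12.7% with at least 2 different markers and 30.4% (3149) with the neuron list under 1%. Without 1 mouse 2.00% to 3.60% were higher and 13.8% to 18.5% lower, the lowest values being those without V321L female 2 and without V321L female 1. By leaning the genes higher and lower numbered 0 and 6 with DESeq2 size factors, 3 and 5 with library totals, 3 and 6 with DESeq2, 0 and 20 with no filter, 13 and 13 with the neuron list under 1%, and 0 to 1 and 3 to 6 without 1 mouse. Between genotypes they numbered 44 and 63 with library totals, 46 and 1 with no filter, 34 and 4 with the replicate block, 14 and 9 of 54 genes when thinned to 500 UMIs, 18 and 2 with the neuron list under 1%, and 21 to 82 and 3 to 32 without 1 mouse. The cause of these shifts was not tested. Of the values of single named genes, 447 kept their direction and call, 22 lost the call and 0 reversed.

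The accessibility difference passed in mice with at least 3 vascular nuclei (0.134), with the neuron list under 1% (0.186) and without WT female 1 (0.108), and was 0.0497 to 0.108 without 1 mouse. With 16 WT nuclei and 37249 WT vascular UMIs in all, differences between genotypes in low genes were not detectable at this depth.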
